A study of Mus musculus with 18 samples.

Results

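The genes described here are 9 core genes of TGF-beta and activin signalling: the ligand genes Tgfb1, Tgfb2 and Tgfb3, the activin subunit genes Inhba and Inhbb, the receptor genes Tgfbr1 and Tgfbr2, and the feedback genes Smad7 and Skil. They were taken by gene symbol from the authors' deposited table, where all 9 were present among 13816 gene IDs, each with 1 ID. The samples were bulk RNA of sorted mouse dorsal skin cells, in 6 groups of 3. The populations labelled EpSCs, Germ and Bulge were each sorted from control skin at day 0 and from DPCP skin at day 2, DPCP being diphenylcyclopropenone, a compound that sensitizes skin on contact and sets off allergic inflammation. The series is about hair growth in contact hypersensitivity. The labels call the cells dermal keratinocytes, give no strain, genotype, age or dose, and do not spell out EpSCs. Nothing in them tells separate animals from repeat samples of 1 animal. The p-values then measure only the spread between these samples, which may be technical.

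TGF-beta ligands and activins are secreted dimers that bind a type II receptor, which then activates a type I receptor. The type I receptor phosphorylates SMAD proteins that enter the nucleus and change transcription. TGF-beta is secreted in a latent form that must be released before it can act. In epidermis the pathway restrains keratinocyte growth. In the mouse follicle, TGF-beta from the dermal papilla helps activate the hair germ, where it opposes BMP signals. Activins are induced in wounded skin.

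The values per library were not used, since their column names matched no sample label. Levels in single samples, their spread and the sequencing depth are therefore unknown here. The labelled populations could not be checked by marker levels either. Each value below is a log2 fold change of DPCP over control (positive where DPCP was higher) from the authors' deposited table, made with limma. A gene was called, and is said to have risen or fallen, where the authors' adjusted p (Benjamini-Hochberg over all 13816 IDs) was under 0.05. Control and DPCP samples also differ in day, and these effects cannot be told apart. In bulk RNA of sorted cells, fewer cells of a type and less RNA per cell cannot be told apart either.

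Of the 9 genes, 6 were called in at least 1 population. The share of all genes called in at least 1 population was not counted, and is at least the 39.9% called in EpSCs. In EpSCs 4 of 9 were called, beside 39.9% of all genes, with 2 higher (19.9% of all genes) and 2 lower (20.0%). The count there was close to the share of all genes. In Bulge 3 of 9 were called, beside 10.3% of all genes, with 1 higher (5.12%) and 2 lower (5.16%). In Germ 0 of 9 were called by limma with Benjamini-Hochberg adjustment, beside 1.06% of all genes (0.847% higher and 0.21% lower), and 0 with Benjamini-Yekutieli adjustment. At an unadjusted p under 0.05 the counts were 5 of 9 in EpSCs (48.9% of all genes), 4 in Germ (25.7%) and 6 in Bulge (29.2%). The median log2 fold change of the 9 genes was 0.23 in EpSCs, 0.61 in Germ and 0.51 in Bulge, where the medians of all genes were −0.0034, 0.10 and −0.02. No gene of the 9 was called in all 3 populations, and Inhbb was called in 2.

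The upstream sequences of called genes are shown because these genes moved in different populations and directions. RefSeq promoters (build GRCm38.p6) were matched for 6 of the 9 genes, namely Tgfb1, Tgfb2, Inhba, Inhbb, Tgfbr1 and Tgfbr2. The 250 bases before the annotated start are printed 5′ to 3′ for the 4 of them that were called. Capitals mark the SMAD-binding core CAGAC and the GC box GGGCGG, each on either strand.
Tgfb1: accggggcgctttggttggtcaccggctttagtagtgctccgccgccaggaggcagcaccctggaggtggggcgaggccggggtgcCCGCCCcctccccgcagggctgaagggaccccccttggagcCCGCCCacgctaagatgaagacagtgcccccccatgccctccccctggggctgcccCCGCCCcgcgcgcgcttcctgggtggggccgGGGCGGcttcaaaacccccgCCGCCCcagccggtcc
Tgfb2: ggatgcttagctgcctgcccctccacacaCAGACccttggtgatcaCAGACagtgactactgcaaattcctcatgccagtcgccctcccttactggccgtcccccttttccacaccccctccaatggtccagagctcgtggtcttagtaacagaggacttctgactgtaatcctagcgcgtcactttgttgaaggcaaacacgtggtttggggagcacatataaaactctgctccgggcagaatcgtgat
Inhbb: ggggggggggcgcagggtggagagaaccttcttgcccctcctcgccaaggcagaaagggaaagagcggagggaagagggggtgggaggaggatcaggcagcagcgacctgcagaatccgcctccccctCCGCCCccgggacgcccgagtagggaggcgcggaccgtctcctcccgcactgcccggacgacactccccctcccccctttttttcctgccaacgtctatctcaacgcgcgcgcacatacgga
Tgfbr2: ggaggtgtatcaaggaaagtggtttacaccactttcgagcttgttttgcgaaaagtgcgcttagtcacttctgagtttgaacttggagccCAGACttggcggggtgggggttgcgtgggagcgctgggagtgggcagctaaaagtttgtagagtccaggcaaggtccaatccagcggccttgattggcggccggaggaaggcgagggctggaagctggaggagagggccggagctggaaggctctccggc
The windows lie at chr7:25686752-25687001 on the plus strand for Tgfb1 and, on the minus strand, at chr1:186705990-186706239 for Tgfb2, chr1:119422249-119422498 for Inhbb and chr9:116175364-116175613 for Tgfbr2. The Tgfb2 window holds 2 CAGAC cores and no GC box, and that of Tgfbr2 holds 1 core and no GC box. The Tgfb1 window holds 5 GC boxes and the Inhbb window 1, and neither holds the CAGAC core. Of all 32841 promoter windows of this length, 42.2% hold the CAGAC core and 32.7% the GC box on either strand. The AP-1 motif TGANTCA, present in 6.75% of all windows, was found in none of the windows of the 6 matched genes. Base composition differs as well, at 75.2% G and C for Tgfb1, 68.0% for Inhbb, 58.4% for Tgfbr2 and 53.6% for Tgfb2, against a median of 52.4% over all windows. The letters alone say nothing about binding.

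Of the 3 TGF-beta ligand genes, Tgfb1 was called lower in EpSCs, and Tgfb2 and Tgfb3 were called lower in Bulge. Tgfb1, at chr7:25687002-25705077, encodes the isoform made by many cell types, leukocytes among them. In EpSCs it fell by 1.61 on the log2 scale in the authors' deposited table, a 3.05-fold decrease with an adjusted p of 0.00195. Its values there were 0.52 in Germ (adjusted p = 0.442) and 0.11 in Bulge (adjusted p = 0.858), neither called. Tgfb1 was thus lower in EpSCs and not called in Germ or Bulge.

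Tgfb3, at chr12:86056745-86079041 on the minus strand, had the largest fall of the 9 genes. In Bulge its log2 fold change was −3.998 in the authors' deposited table (16.0-fold lower, adjusted p = 0.00307). It ranked 39 of 13816 genes there by p-value, and 126 counted from the lowest log2 fold change. In EpSCs the same table gives 0.99 (adjusted p = 0.0775) and in Germ 0.06 (adjusted p = 0.919). Tgfb2, at chr1:186622792-186705989 on the minus strand, encodes the isoform known for its part in follicle formation and growth. It also fell in Bulge, by 2.45 in the authors' deposited table (5.46-fold, adjusted p = 0.0304). Its value was 0.12 in EpSCs (adjusted p = 0.887) and −0.28 in Germ (adjusted p = 0.645) in that table. In Bulge, then, both ligand genes were lower with DPCP, and Tgfb1 was not called. Both genes share exonic bases with annotated transcripts of the opposite strand (124 of 5791 bases for Tgfb2). For Tgfb3 these are 163 bases with Gm37804 and 257 with Gm48008, of 3383. The library kit was stranded, but the sources used here do not state the strand setting of the counting.

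The 2 activin subunit genes also differed. Inhbb, at chr1:119415465-119422248 on the minus strand, encodes the subunit of activin B. It rose in EpSCs by 4.03 in the authors' deposited table, a 16.3-fold increase with an adjusted p of 6.11e-06, and ranked 61 of 13816 genes by p-value. In Bulge it rose by 1.78 in the same table (3.44-fold, adjusted p = 0.03). In Germ its value was 0.12 (adjusted p = 0.78). An approximate 95% interval, rebuilt from fold change and p, ran from 2.61 to 5.45 in EpSCs, from 0.65 to 2.91 in Bulge and from −0.42 to 0.65 in Germ. Inhba, at chr13:16011851-16031621, encodes the subunit of activin A. Its values in the authors' deposited table were 3.12 in Germ (8.67-fold, adjusted p = 0.103), 2.42 in Bulge (5.35-fold, adjusted p = 0.0916) and −0.53 in EpSCs (adjusted p = 0.615). None was called, and the rebuilt intervals were wide, from 0.82 to 5.41 in Germ and from 0.44 to 4.40 in Bulge.

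**Figure D1:**
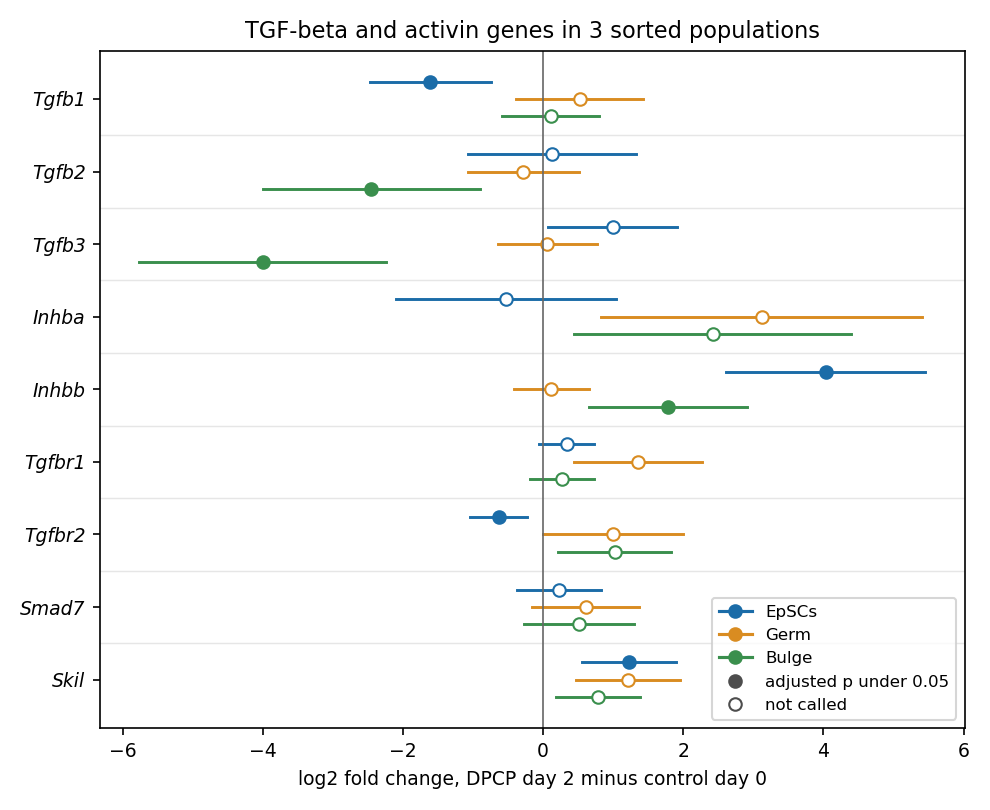
Log2 fold change (x axis, DPCP minus control) of the 9 genes (rows) in EpSCs, Germ and Bulge from the authors' deposited table, with approximate 95% intervals rebuilt from fold change and p as bars. Filled points had an adjusted p under 0.05; Inhbb in EpSCs (4.03) and Tgfb3 in Bulge (−3.998) lie farthest from 0.

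Among the receptors, Tgfbr2 was the called gene. It encodes the type II receptor that binds TGF-beta and lies at chr9:116084293-116175360 on the minus strand. In EpSCs it fell by 0.63 in the authors' deposited table (1.55-fold, adjusted p = 0.00875). Its values there were 1.002 in Germ (adjusted p = 0.193) and 1.02 in Bulge (adjusted p = 0.0807), on the other side of 0. Tgfbr1, the type I receptor that TGF-beta signals through, at chr4:47353222-47414931, was not called in any population. The same table gives 0.34 in EpSCs (adjusted p = 0.163), 1.35 in Germ (adjusted p = 0.0851) and 0.27 in Bulge (adjusted p = 0.447).

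Of the feedback genes, Skil encodes SnoN, a repressor of SMAD-driven transcription that is itself induced by TGF-beta, and lies at chr3:31095058-31122577. It rose in EpSCs by 1.22 in the authors' deposited table (2.33-fold, adjusted p = 0.00259). In Germ the value was nearly as large, 1.21, and was not called (adjusted p = 0.0661), and in Bulge it was 0.78 (adjusted p = 0.0718). Skil ranked 278 of 13816 genes by p-value in Germ, higher than any other of the 9 there. Smad7, an inhibitory SMAD that blocks the type I receptor, at chr18:75367529-75395935, had 0.23 in EpSCs, 0.61 in Germ and 0.51 in Bulge in the authors' deposited table. None of these was called (adjusted p = 0.569, 0.288 and 0.39). Skil and Smad7 had the narrowest ranges of the 9 genes across the 3 populations, 0.439 and 0.381 on the log2 scale.

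**Figure D2:**
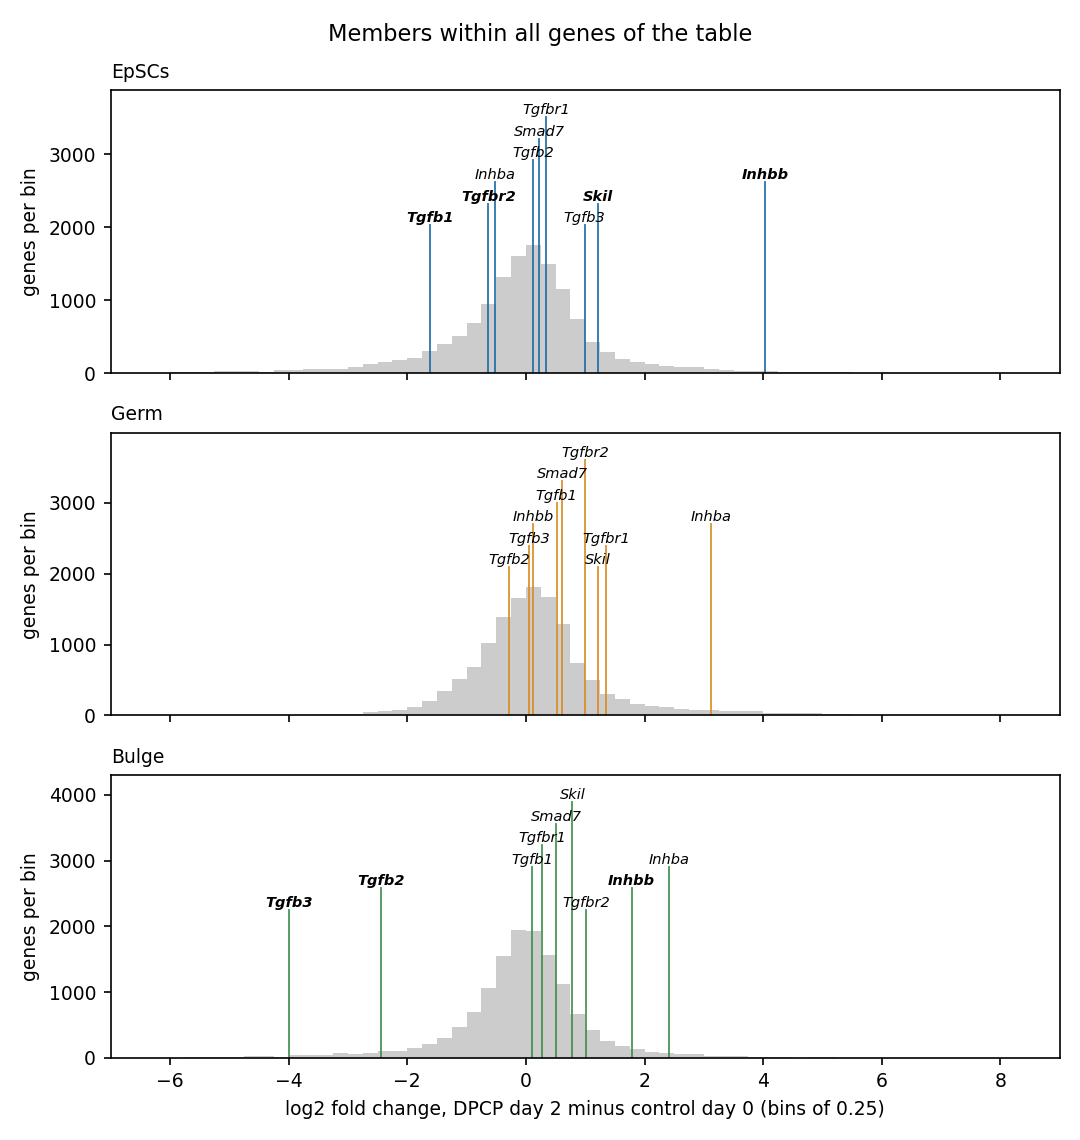
Histograms (grey, genes per bin of 0.25) of the log2 fold change of all 13816 genes in each population, with the 9 genes marked by lines and called ones in bold. In Bulge, Tgfb3 (−3.998) and Tgfb2 (−2.45) lie in the lower tail; in EpSCs, Inhbb (4.03) lies in the upper tail.

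To compare populations, the difference of 2 deposited log2 fold changes was divided by a combined standard error rebuilt from their p-values, with Benjamini-Hochberg adjustment across the whole table. It approximates an interaction term, which needs values per library, and in simulated data its share of false calls was above the threshold. Of simulated differences of 2, this test recovered 7.0% for Germ and Bulge, 22.0% for EpSCs and Bulge and 17.0% for EpSCs and Germ. A difference near 2 that did not pass is therefore not shown to be absent. Between EpSCs and Bulge 3 of 9 genes differed, beside 10.4% of all genes. Between EpSCs and Germ 3 of 9 differed, beside 12.2%, and between Germ and Bulge 1 of 9, beside 5.99%. For Tgfb3 the effect in Bulge was lower than in EpSCs by 4.99 (SE 1.01, adjusted p = 0.000168) and lower than in Germ by 4.06 (SE 0.97, adjusted p = 0.00449). For Inhbb the effect in EpSCs exceeded that in Germ by 3.91 (SE 0.77, adjusted p = 7.38e-05). Its differences of 2.25 between EpSCs and Bulge and of −1.66 between Germ and Bulge did not pass (adjusted p = 0.094 and 0.0948).

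For Tgfb1 and Tgfbr2 the effect was lowest in EpSCs, as it was, without a called difference, for Inhba and Smad7. For the other TGF-beta ligand genes, Tgfb2 and Tgfb3, it was highest there (0.12 and 0.99). The Tgfb1 effect in EpSCs minus that in Germ was −2.13 (SE 0.64, adjusted p = 0.0129), and minus that in Bulge −1.72 (SE 0.56, adjusted p = 0.0316). For Tgfbr2 the values were −1.64 (SE 0.55, adjusted p = 0.0296) and −1.66 (SE 0.46, adjusted p = 0.00878). Between Germ and Bulge neither passed, with differences of 0.41 (adjusted p = 0.741) and −0.02 (adjusted p = 0.992). For Tgfb2, the Germ effect minus the Bulge effect was 2.17 with a 95% interval from 0.42 to 3.91, and did not pass (adjusted p = 0.126). For Inhba, EpSCs minus Germ gave −3.64, with an interval from −6.42 to −0.86 (adjusted p = 0.0696). Skil had no called difference, and its interval for EpSCs minus Germ ran from −0.99 to 1.01.

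**Figure D3:**
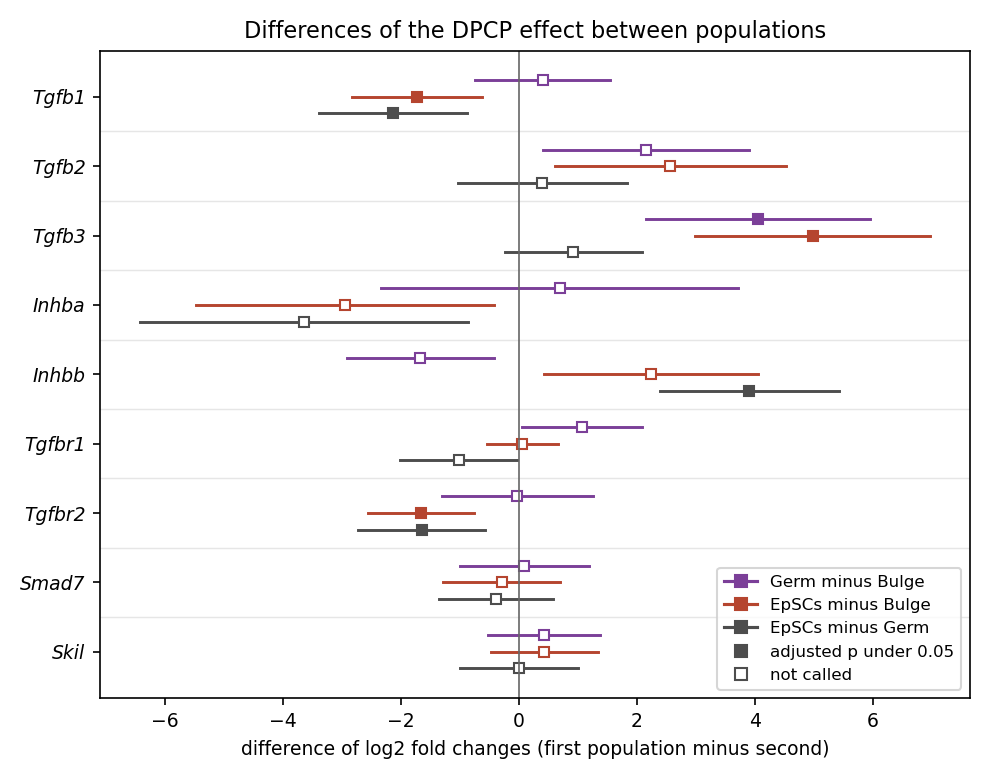
Difference of the DPCP effect between populations (x axis, log2 fold change of the first minus the second) for the 9 genes, with approximate 95% intervals as bars and filled squares for an adjusted p under 0.05. Tgfb3 stands out where Bulge is compared, and Inhbb where EpSCs is compared with Germ.

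Other genes of the pathway were taken from lists by role, 80 of whose genes besides the 9 were in the table. In EpSCs 14 of the 80 rose and 19 fell, which is 41.2% called and close to the 39.9% of all genes. In Bulge 5 rose and 8 fell (16.2%), beside 10.3% of all genes. For Germ, 3 rose and 0 fell (3.75%), beside 1.06%. The lists were described by counts and medians only. Each list count below is to be read beside the share of all genes for its population, and was not tested against that share.

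Of 16 genes of ligand latency and activation, 4 rose and 4 fell in EpSCs (median −0.18). Lrrc32, which tethers latent TGF-beta to the cell surface, rose by 4.07 in the authors' deposited table (16.8-fold, adjusted p = 0.000155). Itgb8, whose product pairs with the integrin alpha v chain to release active TGF-beta, rose by 4.02 (adjusted p = 5.99e-06), and Itgav, the gene of that chain, by 0.69 (adjusted p = 0.0107) in that table. Ltbp4, a latent TGF-beta binding protein, fell by 2.21 there (adjusted p = 9.95e-05), as did Thbs1 (−2.85), whose product can activate the latent form, and the fibrillin gene Fbn1 (−2.80). Pcsk6, a proprotein convertase gene, rose by 1.61 in the same table. The effect in EpSCs exceeded that in Germ by 3.602 for Itgb8 (adjusted p = 0.000257) and by 2.95 for Lrrc32 (adjusted p = 0.0253). Against Bulge, the Itgb8 difference was 3.27 (adjusted p = 0.00331) and that of Lrrc32, 2.99, did not pass (adjusted p = 0.0515). In Bulge, 1 of the 16 rose and 2 fell (median −0.14). Ltbp1, another latent TGF-beta binding protein, fell by 2.80 in the authors' deposited table (adjusted p = 0.0111), beside the falls of Tgfb2 and Tgfb3. Its effect in Bulge was below that in Germ, with a difference of 4.21 for Germ minus Bulge (adjusted p = 0.00104). Thbs1 fell in Bulge too (−2.80), and Pcsk6 rose (1.59) in that table. In Germ none of the 16 was called by limma (median 0.57).

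Among 2 other ligand genes, Lefty1, an antagonist of Nodal, fell in EpSCs (−0.95) and Bulge (−1.21) in the authors' deposited table. Of 7 other receptor genes, 2 rose in EpSCs, the activin receptor gene Acvr2a (0.56) and Cd109 (0.64), whose product restrains TGF-beta signalling in keratinocytes. In Germ, Eng, a co-receptor abundant in endothelium, rose by 4.25 in the authors' deposited table (adjusted p = 0.0433). In Bulge, the type I receptor gene Acvrl1 fell by 1.44 there (adjusted p = 0.013). Of 7 SMADs and cofactors, Smad3, which carries the TGF-beta and activin signal, fell in EpSCs by 1.65 (adjusted p = 0.00182) and was the called gene of that list. Its effect in EpSCs was below that in Bulge, with a difference of −2.61 (adjusted p = 0.000421). The list of feedback genes and inhibitors, not all of whose members are inhibitors, had 2 of 14 higher and 1 lower in EpSCs and 1 higher in Bulge. Fst, which binds and blocks activins, rose in EpSCs by 1.75 in the authors' deposited table (adjusted p = 0.000508), where Inhbb rose too. Usp15, a deubiquitinase gene, rose (0.84) and Tgif2, a SMAD corepressor gene, fell (−2.62) in EpSCs in that table. Pmepa1, a TGF-beta-induced inhibitor of the pathway, rose 20.4-fold in Bulge (4.35, adjusted p = 0.0125) in that table. The Pmepa1 effect in EpSCs minus that in Bulge was −3.66 (adjusted p = 0.0393).

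Genes known to respond to TGF-beta or activin did not move as a block. Of 18, 3 rose and 8 fell in EpSCs (median −0.48), 2 rose and 3 fell in Bulge (median 0.55), and 2 rose in Germ (median 1.09). The matricellular gene Ccn2 rose in EpSCs by 2.45 and fell in Bulge by 2.85 in the authors' deposited table, and the difference of 5.30 passed (adjusted p = 5.05e-05). Its relative Ccn1 fell in both, with −3.74 in EpSCs and −3.86 in Bulge. Cdkn2b, a cell cycle inhibitor gene, rose in EpSCs (1.12), where Adam19 (−3.64) and the collagen gene Col4a1 (−2.33) fell. The integrin gene Itga2 fell in both EpSCs (−2.17) and Bulge (−1.61) in that table. The fibronectin gene Fn1 fell in EpSCs (−2.06) and rose in Bulge (2.35) in that table. The Fn1 difference of −4.41 for EpSCs minus Bulge passed (adjusted p = 0.000273). Klf10, an early TGF-beta-induced gene, rose in EpSCs (1.16) and Bulge (1.05). In Germ, Timp1 (7.02) and Bhlhe40 (1.49) rose in the authors' deposited table. Bhlhe40 fell in EpSCs (−1.21), and its difference of −2.70 for EpSCs minus Germ passed (adjusted p = 0.000137). Of 16 genes of the related BMP arm, 3 rose and 4 fell in EpSCs. Bmp2 (−2.83) and Bmp4 (−2.82) fell there and Bmp7 rose (2.59) in the authors' deposited table, as did Smad1 (1.11) and Bmpr1a (1.09), while Bmpr1b fell (−2.52). In Bulge, Bmp7 rose (2.90) and the BMP inhibitor gene Grem1 fell (−2.46) in that table.

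**Figure D4:**
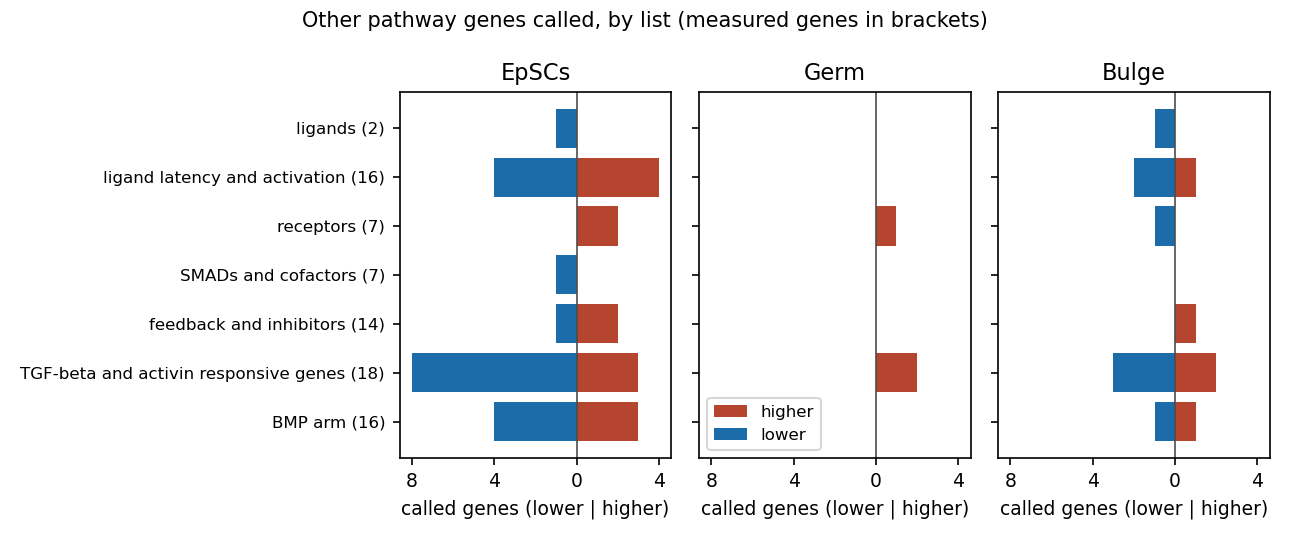
Number of other pathway genes called higher (red, to the right of 0) and lower (blue, to the left) in each list and population, with the measured genes of the list in brackets. EpSCs has called genes in every list but Germ has them in 2 lists, 1 receptor gene and 2 responsive genes.

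**Figure D5:**
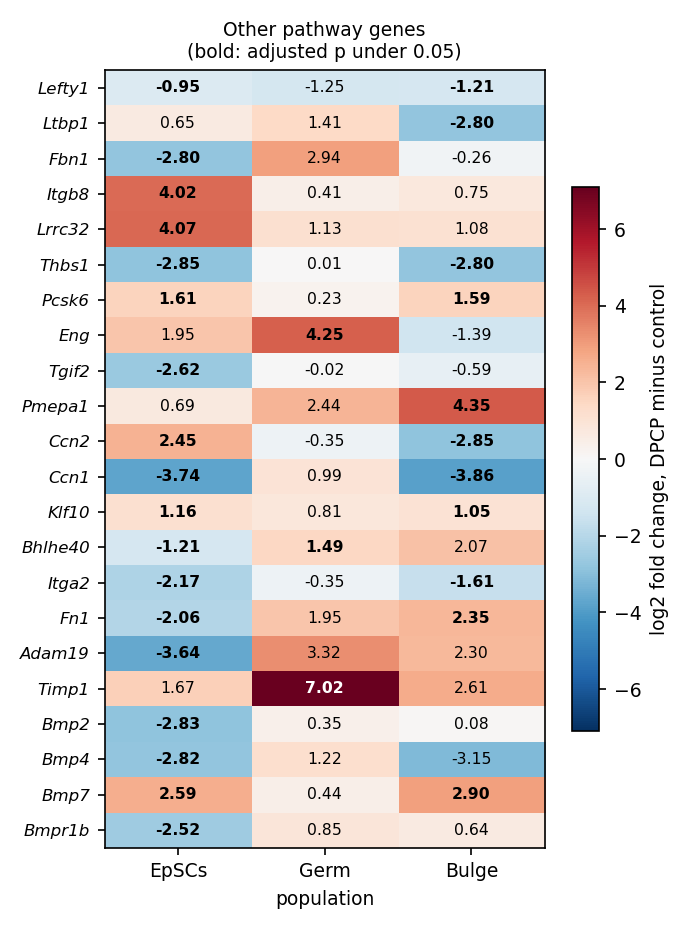
Log2 fold change (colour and printed value, DPCP minus control) of 22 other pathway genes, those called in at least 2 populations or called with a change of 2.5 or more in size, a selection made after the values were seen. Bold values had an adjusted p under 0.05; Lrrc32 (4.07) and Itgb8 (4.02) are high in EpSCs, Pmepa1 (4.35) in Bulge.

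Position gave little in common to the 9 genes, which lie on 8 chromosomes. Inhbb and Tgfb2 share chromosome 1 and lie far apart. The nearest measured neighbours of Tgfb3, Ttll5 (which overlaps its span on the opposite strand) and Ift43, were at 0.01 and −0.54 in Bulge in the authors' deposited table, uncalled where Tgfb3 fell. In EpSCs both neighbours rose, by 0.79 (adjusted p = 0.017) and 0.90 (adjusted p = 0.00519) in that table, close to the uncalled 0.99 of Tgfb3. Ralb, next to Inhbb on the higher side, rose in EpSCs by 0.67 in that table (adjusted p = 0.0119), well short of the 4.03 of Inhbb. B9d2, which lies 0.444 kb from Tgfb1, fell in EpSCs by 1.47 (adjusted p = 0.0114), close to the −1.61 of Tgfb1. It also fell in Bulge, by 1.98 (adjusted p = 0.0161), where Tgfb1 was not called. Prkci, next to Skil on the lower side, rose in EpSCs by 0.79 (adjusted p = 0.00258), beside 1.22 for Skil. Zmat3, on the other side of Skil, was not called there (0.30, adjusted p = 0.474).

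The gene with the most like pattern was sought for Inhbb, Tgfb3 and Tgfb2, as the smallest Euclidean distance over the 3 log2 fold changes of the authors' deposited table. For Inhbb it was Kdelr3 (4.33 in EpSCs, 0.01 in Germ and 1.93 in Bulge, distance 0.352). For Tgfb3 it was the follicle keratin gene Krt71 (0.83, 0.36 and −3.86 in the same order, distance 0.368). For Tgfb2 it was Gm11992 (−0.03, −0.45 and −2.33, distance 0.262). With 3 values a gene, such likeness is a description.

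Markers of cell identity moved in the same comparisons. Mitochondrially encoded and ribosomal protein genes moved in EpSCs and, by unadjusted p only, in Germ. The part of all these genes in the results was not tested. Beside the marker counts, 39.9% of all genes were called in EpSCs, 10.3% in Bulge and 1.06% in Germ. In EpSCs, 6 of 7 basal epidermal markers fell (median −1.38), 5 of 6 hair germ markers fell and 1 rose (median −2.01), and 5 of 9 bulge markers rose and 2 fell (median 1.43). Bmp4 is also among the hair germ markers. The lists overlap, since Lgr5 (2.02), the hair germ marker that rose, is also among the bulge markers that rose. Itga6 (−0.72), which fell, is in both the bulge and the basal epidermal list. Cd200, a bulge marker gene, rose there by 5.08 in the authors' deposited table, beside 4.03 for Inhbb, 4.07 for Lrrc32 and 4.02 for Itgb8. Of the EpSCs lists for other cells, 3 of 8 leukocyte and macrophage markers fell (median −1.32, from −3.85 to 1.67). In the neutrophil list 3 of 4 markers rose and 1, Mmp8 (−3.10), fell (median 2.41). Among the rest, 2 of 3 fibroblast markers fell (median −3.03), 2 of 4 dermal papilla markers fell and 1 rose (median −2.67), 3 of 6 sebaceous gland markers rose (median 0.84) and 2 of 8 melanocyte markers rose (median 2.22). Of 12 immediate early genes, which tissue dissociation can induce, 11 fell in EpSCs (median −2.27). There 73 of 77 cytosolic ribosomal protein genes and 10 of 12 mitochondrially encoded genes fell (medians −1.29 and −2.55).

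In Bulge, where Tgfb2 and Tgfb3 fell, 2 of 6 hair germ markers fell (median −1.55), and 3 of 6 sebaceous gland markers fell and 1 rose (median −2.55). Crabp1, 1 of 4 dermal papilla markers, fell there by 4.52 in the authors' deposited table (list median −0.95), and 0 of 3 fibroblast markers was called by limma, with 0 at an unadjusted p under 0.05. Of 4 neutrophil markers 3 rose in Bulge (median 6.38, from 2.47 to 8.93), and 0 of 8 leukocyte and macrophage markers was called by limma, with 2 at an unadjusted p under 0.05. Of the 4, S100a8 (8.93) and S100a9 (8.74) lay far above Cxcr2 (4.02) and Mmp8 (2.47). Which cells these RNAs came from was not tested. Bulge also had 1 of 9 bulge markers (Cd200), 2 of 7 basal epidermal markers and 1 of 8 melanocyte markers lower. There 0 of 12 mitochondrially encoded and 0 of 77 cytosolic ribosomal protein genes were called by limma (medians −0.60 and −0.23). At an unadjusted p under 0.05 both counts were also 0. In Germ, where Eng and Timp1 rose, 6 of 8 melanocyte markers (median 6.09), 2 of 7 endothelial markers (median 4.601), 1 of 4 dermal papilla markers and 1 of 6 sebaceous gland markers rose, and 1 of 7 basal epidermal markers fell. Mitochondrially encoded and ribosomal protein genes had medians of −2.42 and −1.9975 in Germ with 0 called by limma, and 7 of 12 and 74 of 77 had an unadjusted p under 0.05.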

How the data were processed

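RNA of 18 samples (6 groups of 3, from the sample titles) was analysed through 1 table. Libraries were stranded and selected for poly(A), per the labels' protocols. The tools named include STAR 2.7.6a, cutadapt 3.5 and limma 3.60.6, with the builds GRCm38 and mm10, per the submitters' processing notes. For the counter, annotation, filter, normalization and model, the entry is: not given in the sources used here. For every gene in each comparison, the deposited values are a log2 fold change with its p-value before and after adjustment. Recomputed Benjamini-Hochberg values differed from the deposited ones by at most 2.0e-14. The 36 columns of values per library were not used, since their names matched no sample label, so depth is unknown and planned fits per library were left out.

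Differences of effects used standard errors rebuilt as the fold change over the normal score of its p, which treats the comparisons as independent and leaves out the pooling of spread in limma. It was tested on simulated data, where the share of false calls was above the threshold. Alternatives were other thresholds and adjustments, a minimum fold, median centring and a t score. The genes and lists were chosen with earlier results of these data known. Named are all 9 genes, up to 3 called genes of each list in each direction, and nearest patterns. The other genes named (marker, neighbour, uncalled or list genes named for contrast, such as Itgav) were chosen after their values were seen. Coordinates are from GENCODE M21 (GRCm38), which held 13388 of the 13816 IDs with the same version. Python 3.11.15, pandas 2.3.3, SciPy 1.17.1 and, for the simulation, limma 3.58.1 were used.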

Additional observations from a re-analysis of the deposited data

Results flagged for a closer look

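The DPCP effect differed between populations for 4 of the 9 genes, by the approximate test of the difference itself. The share of all genes that differed in at least 1 pair was not counted. It is at least the 12.2% that differed between EpSCs and Germ. For Tgfb3 the difference was 4.99 for EpSCs minus Bulge and 4.06 for Germ minus Bulge. For Inhbb it was 3.91 for EpSCs minus Germ. For Tgfb1 it was −1.72 for EpSCs minus Bulge and −2.13 for EpSCs minus Germ. For Tgfbr2 it was −1.66 for EpSCs minus Bulge and −1.64 for EpSCs minus Germ.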

How the results depend on the processing

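No paired analysis was possible because the columns of single libraries carry no sample label. For the same reason the other pseudocount, the filter on low values and leaving out each replicate were not run, nor was an interaction term. Centring on the median of all genes changed no call of the 9 genes and turned 2 uncalled values near 0: Tgfb3 in Germ from 0.0593 to −0.0379, and the Smad7 difference for Germ minus Bulge from 0.0958 to −0.0227. Against a fold change of 1.5, 1 of 9 genes was called in EpSCs (Inhbb) in place of 4, and 1 in Bulge (Tgfb3) in place of 3. In Bulge 1 gene, Tgfb3, was called with Benjamini-Yekutieli adjustment or at an adjusted p under 0.01, and 6 at an adjusted p under 0.1. In Germ 2 genes, Tgfbr1 and Skil, were called at an adjusted p under 0.1 in place of 0. In EpSCs, Benjamini-Yekutieli adjustment lost Tgfbr2, and an adjusted p under 0.1 gave 5 calls in place of 4, adding Tgfb3 (0.99, opposite in sign to its fall in Bulge). With a t score of 4 degrees of freedom in place of the normal score, 3 differences were called between Germ and Bulge, 5 between EpSCs and Bulge and 5 between EpSCs and Germ, and in simulated data this score made more false calls. At an adjusted p under 0.01, 1 difference was called between EpSCs and Germ (Inhbb) in place of 3, and Tgfb1 was lost between EpSCs and Bulge. The shares of all genes called at these other settings were not counted, so the counts of the 9 genes cannot be set against them. The causes were not tested.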
